A study of Rattus norvegicus with 9 samples.

Results

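C-type lectin receptors are membrane proteins of macrophages, dendritic cells, monocytes and neutrophils that bind sugars and glycolipids of microbes and of damaged cells. The 6 followed here in alveolar macrophages of the rat, the resident scavenger cells of the alveoli, were Clec4a1, Clec4a3, Clec4d, Clec4e, Clec7a and Clec10a. They were chosen with earlier results of these data known and were looked up by symbol. All 6 of 6 were found among the 17109 genes of the deposited table, each as 1 transcript row (RefSeq NM_001005890, NM_001005891, NM_001003707, NM_001005897, NM_001173386 and NM_022393). All 6 also passed the filter on low values, so that none was left out of the tests on 9885 genes.

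Clec7a (Dectin-1) binds beta-glucans of fungal walls. Clec4e (Mincle) binds mycobacterial glycolipids and material released by dying cells, and Clec4d (MCL) forms complexes with it and supports its presence at the surface. Signals of Clec4e and Clec4d pass through the adaptor chain encoded by Fcer1g to the kinase Syk and the adaptor Card9, while Clec7a recruits Syk through its own tail. Clec10a (MGL) binds terminal galactose and N-acetylgalactosamine and is a known marker of alternatively activated macrophages and of some dendritic cells. Clec4a1 and Clec4a3 belong to the family of the dendritic cell immunoreceptor (Dcir4 and Dcir3 in the RefSeq synonyms), whose founding member carries an inhibitory motif that recruits phosphatases such as the product of Ptpn6.

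The cells came from male Wistar rats and were recovered by massage, as the wording of the series is read here. Under anaesthesia the animals had been given PBS, a buffered salt solution, or nitrogen mustard (NM, the alkylating agent mechlorethamine, at 0.125 mg/kg) through the trachea. There were 3 groups of 3 libraries, PBS, NM day 1 and NM day 28, which the series describes as biological replicates numbered 0, 1 and 2. The day on which PBS animals were sampled was not given in the sources used here, and their label reads 0 days of exposure. Values are FPKM, fragments scaled to transcript length and to the mapped fragments of the library, so that levels of different genes can be compared.

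The macrophage gene Cd68 lay between 723.7 and 1355 FPKM in the 9 libraries, while the scavenger receptor Marco, a usual marker of alveolar macrophages, was listed at 0 in each. A listed 0 can be a failed estimate, so no absence of Marco is read from it. Fragment totals were not used here. Depth relative to replicate 0 of NM day 1, estimated from the step between low FPKM values, was 1.42 to 2.58 in PBS, at most 1.47 in NM day 1 and 1.03 to 1.12 in NM day 28. In bulk RNA, a change in the share of cells of a type and a change in RNA per cell cannot be told apart, and this holds for every result here.

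The receptors fell into 3 time courses. Clec10a, Clec4a1 and Clec4a3 were higher 1 d after NM than in PBS and lower again at day 28. Clec4e was higher at both days and Clec4d at day 28, and Clec7a, by far the most abundant, passed no test. At day 1, 4 of 6 receptors were called higher and 0 lower, where 5.28% of all genes tested were called higher and 4.58% lower (9.86% in either direction). At day 28, 2 of 6 were called higher than PBS and 0 lower, against 3.07% and 3.98% of all genes (7.04% in either direction). From day 1 to day 28, 0 of 6 were called higher and 3 lower, against 4.75% and 6.88% (11.6% in either direction). Without adjustment, 0 receptors were lower at either day and 0 higher between the days at p under 0.05 by limma. A gene is called where limma's Benjamini-Hochberg adjusted p, over all genes tested, was under 0.05. The median log2 fold change over the 6 receptors was 1.71 at day 1, 0.63 at day 28 and -0.79 between the days, beside -0.04, -0.04 and 0.00 over all genes. Both NM groups were set against the same 3 PBS libraries. Because the 6 were chosen with earlier results known, these counts, and those by library below, are a description. No excess over all genes is read from them.

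Counted by libraries alone, 5 of 6 receptors had all 3 NM day 1 libraries above all 3 PBS libraries and 0 had them below, beside 15.2% and 18.1% of all genes tested. At day 28 the groups were apart in this way for 2 of 6, Clec4d and Clec4e, both higher, beside 12.7% of genes higher and 14.4% lower. From day 1 to day 28, 3 of 6 had every day 28 library below every day 1 library and 0 above, beside 15.7% and 15.1% of genes.

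**Figure D1:**
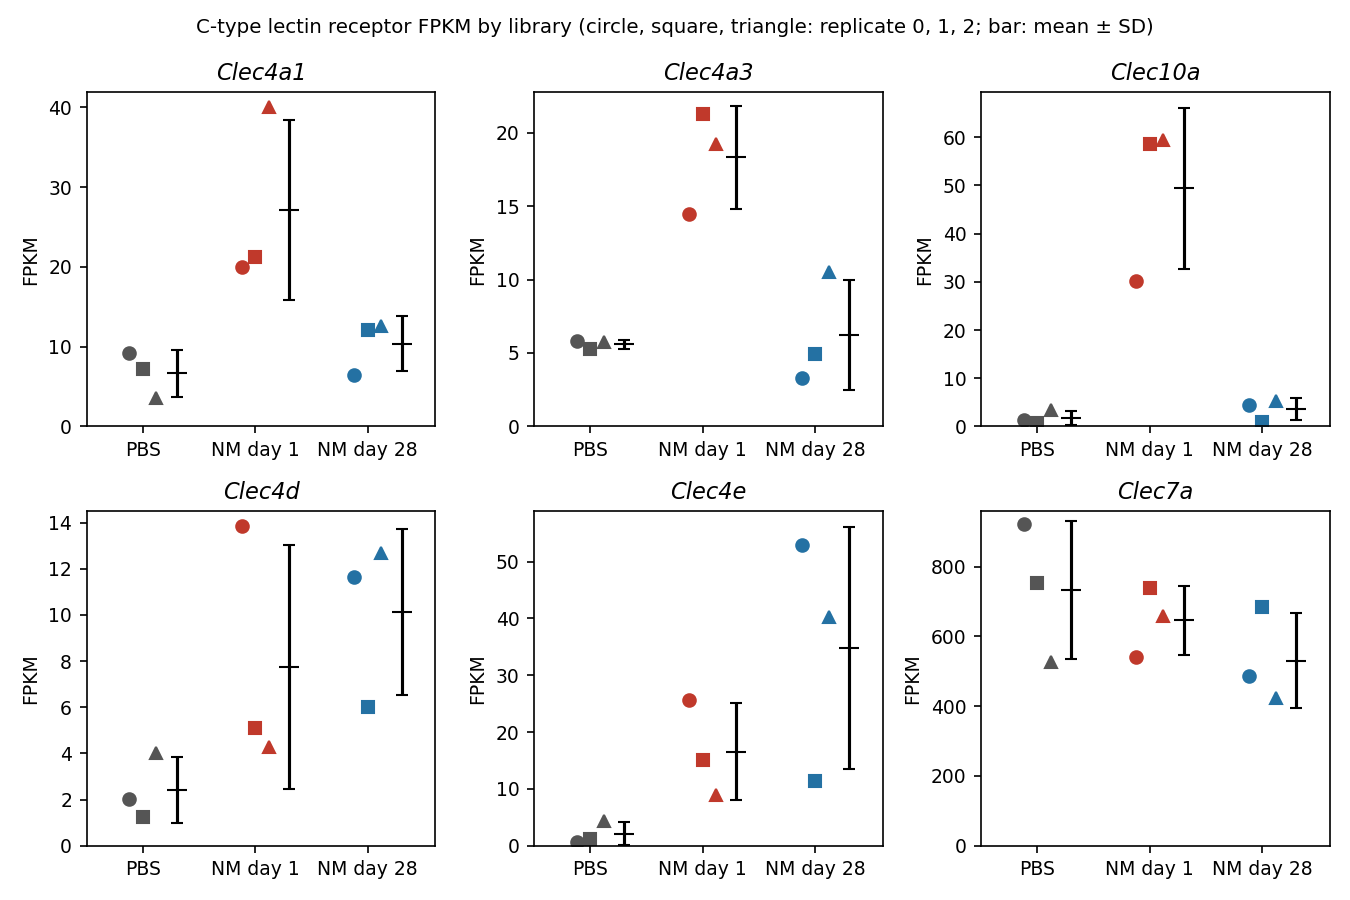
FPKM (linear axes from 0) of the 6 receptors in each of the 9 libraries, by group, with the group mean and SD beside the points. Clec10a, Clec4a1 and Clec4a3 have their highest values in the NM day 1 libraries, Clec4e its highest in NM day 28, and the Clec7a groups overlap, between 422.7 and 921.5 FPKM.

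Clec7a dominated the set in every library. It stood at 921.5, 753.6 and 527.3 FPKM in PBS, at 542.3, 737.5 and 657.2 in NM day 1 and at 485.8, 683.6 and 422.7 in NM day 28. The 3 groups overlapped, and each library placed Clec7a between the 98.7th and the 99.2nd percentile of all genes. Its fitted log2 fold change was -0.16 at day 1 (95% interval -0.68 to 0.37, adjusted p = 0.734 by limma) and -0.46 at day 28 (-0.99 to 0.07, adjusted p = 0.276). Between the days the change was -0.30 (-0.83 to 0.22, adjusted p = 0.465). These intervals leave room for a fall to 0.505 times the PBS level at day 28 and for a rise to 1.29 times at day 1, so they do not show that Clec7a was constant. The day 1 value had the other sign after quantile normalisation (0.14) or without PBS replicate 0 (0.02), and passed in neither.

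The other receptors were scarce in PBS. Clec4a1 and Clec4a3 averaged 6.64 ± 2.90 and 5.60 ± 0.311 FPKM there (mean ± SD, n = 3), and their ranges overlapped. Below them by mean came Clec4d, Clec4e and Clec10a at 2.42 ± 1.44, 2.08 ± 2.00 and 1.81 ± 1.42 FPKM, whose ranges overlapped one another but not that of Clec4a3. The range of Clec4a1, 3.50 to 9.22 FPKM, overlapped those of Clec4d and Clec4e but not that of Clec10a. At day 1 the order was Clec7a, Clec10a, Clec4a1, Clec4a3, Clec4e and Clec4d, and at day 28 Clec7a, Clec4e, Clec4a1, Clec4d, Clec4a3 and Clec10a. In both NM groups each receptor below Clec7a overlapped its neighbour in the order. Without Clec7a the other members summed to between 15.5 and 21.1 FPKM in PBS, 104.1 and 131.9 in NM day 1 and 35.4 and 81.3 in NM day 28. Clec7a accordingly made up at least 96.2% of the summed FPKM of the 6 in PBS, 83.3% to 85.9% at day 1 and 83.9% to 95.1% at day 28.

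Clec4e, the Mincle receptor, was measured at 0.660, 1.22 and 4.38 FPKM in PBS. It reached 25.7, 15.1 and 8.85 FPKM in NM day 1 and 52.8, 11.4 and 40.2 FPKM in NM day 28. Every NM library lay above every PBS library, and the NM groups overlapped. The log2 fold change against PBS was 2.58 ± 0.56 (SE) at day 1 (adjusted p = 0.0147 by limma) and 3.48 ± 0.56 at day 28 (adjusted p = 0.00338). Apart from this fit, which is on log2 of FPKM + 1, mean FPKM was 7.93 times that of PBS at day 1 and 16.7 times at day 28. The step from day 1 to day 28, 0.90 ± 0.56, did not pass (95% interval -0.31 to 2.11, adjusted p = 0.335). The day 1 call was lost on dropping PBS replicate 0 or 1, or else replicate 0 or 1 of NM day 1 (adjusted p = 0.0514, 0.0582, 0.0922 and 0.0516), whereas the day 28 call was kept in all 19 alternatives.

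Clec4d, the partner of Clec4e, differed from PBS at lower levels. It was at 2.01, 1.23 and 4.03 FPKM in PBS, at 13.9, 5.09 and 4.28 in NM day 1 and at 11.7, 6.02 and 12.7 in NM day 28. Again no NM library fell below the highest PBS library, although the gap at day 1 was narrow. The log2 fold change was 1.28 ± 0.42 at day 1, which did not pass (adjusted p = 0.0758 by limma), and 1.72 ± 0.42 at day 28 (adjusted p = 0.0297). The day 28 call ended without PBS replicate 0 or 1 (adjusted p = 0.0781 and 0.128) and on dropping replicate 0 or 2 of its own group (0.0827 and 0.0957). It also ended without a filter (0.0802) and with isoforms tested singly (0.0504). Between the days the change was 0.45 ± 0.42 (adjusted p = 0.538).

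Clec4d and Clec4e lie next to each other on rat chromosome 4 in the RefSeq gene order. Over the 9 libraries their log2(FPKM + 1) values had a Pearson r of 0.95, given as a description of points that share 3 groups. In PBS the library highest in both was replicate 2, in NM day 1 it was replicate 0, and in NM day 28 replicate 1 was lowest in both. Clec7a ran the other way in those same libraries, lowest of its group in PBS replicate 2 and NM day 1 replicate 0 and highest in NM day 28 replicate 1 (r = -0.80 with Clec4d and -0.78 with Clec4e). The ratio of Clec4e to Clec4d FPKM was 0.329, 0.988 and 1.09 in PBS, 1.85, 2.96 and 2.07 in NM day 1 and 4.54, 1.89 and 3.16 in NM day 28. It was thus higher in every NM library than in any PBS library.

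The 250 bases before the annotated start of these neighbours are shown because the pair moved together, with Clec7a as the abundant receptor that did not pass. They come from RefSeq on GRCr8, while the deposited FPKM were made on rn4, and read 5′ to 3′ on the strand of the gene. Clec4d is at chr4:158275093-158275342 on the plus strand, Clec4e at chr4:158298468-158298717 and Clec7a at chr4:164599828-164600077 on the minus strand. Capitals mark matches on either strand to the motif letters searched.
Clec4d: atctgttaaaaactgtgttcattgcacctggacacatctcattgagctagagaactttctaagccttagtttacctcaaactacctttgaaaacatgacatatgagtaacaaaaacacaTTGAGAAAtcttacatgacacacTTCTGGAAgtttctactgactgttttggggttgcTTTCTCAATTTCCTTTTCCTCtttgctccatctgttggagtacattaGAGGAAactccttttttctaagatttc
Clec4e: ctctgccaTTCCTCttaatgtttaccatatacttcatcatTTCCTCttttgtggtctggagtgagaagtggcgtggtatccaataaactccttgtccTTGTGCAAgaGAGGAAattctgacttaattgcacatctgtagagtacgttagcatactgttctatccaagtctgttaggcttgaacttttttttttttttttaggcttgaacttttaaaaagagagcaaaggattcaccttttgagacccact
Clec7a: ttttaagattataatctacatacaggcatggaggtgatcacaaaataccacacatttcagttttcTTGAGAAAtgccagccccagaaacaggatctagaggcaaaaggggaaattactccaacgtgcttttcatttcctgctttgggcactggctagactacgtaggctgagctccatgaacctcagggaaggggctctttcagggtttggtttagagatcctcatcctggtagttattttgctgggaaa
The letters searched were TTNNGNAA for C/EBP factors, GAGGAA for PU.1, TGANTCA for AP-1 and TTCNNNGAA for STAT factors, besides GAAA repeated after 2 bases for IRF and GGG followed after 5 bases by CC for NF-kB. The C/EBP letters occurred 3 times before Clec4d, 1 time before Clec4e and 1 time before Clec7a, and 37.2% of all 33469 RefSeq promoter windows of this length hold them. The PU.1 letters occurred 2 times before Clec4d and 3 times before Clec4e, with 0 before Clec7a, and 23.3% of all windows hold them. The single IRF match, before Clec4d, overlaps a PU.1 match, and 3.41% of windows have one. The AP-1, NF-kB and STAT letters, in 6.34%, 42.3% and 7.67% of windows, were not in these windows. Such matches describe the sequence and do not show binding.

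Clec10a had the largest change of the 6 receptors. It was at 1.40, 0.647 and 3.39 FPKM in PBS and rose to 30.2, 58.7 and 59.4 FPKM at day 1. By day 28 it stood at 4.49, 0.929 and 5.35 FPKM, which overlapped PBS. Mean FPKM was 27.3 times higher at day 1 than in PBS, and the fitted log2 fold change on FPKM + 1 was 4.22 ± 0.46 (SE, adjusted p = 0.000173 by limma). The fall from day 1 to day 28 was -3.57 ± 0.46 on the log2 scale (adjusted p = 0.000767). Day 28 did not differ from PBS by the test (0.65 ± 0.46, 95% interval -0.36 to 1.66, adjusted p = 0.433). Both calls were kept in all 19 alternatives. The RefSeq promoter table has no entry for Clec10a.

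Clec4a1 rose from 9.22, 7.20 and 3.50 FPKM in PBS to 20.01, 21.2 and 40.1 FPKM at day 1, and was at 6.41, 12.1 and 12.6 FPKM at day 28. The day 1 libraries lay above all others, and the day 28 group overlapped PBS. The log2 fold change at day 1 was 1.89 ± 0.35 (SE, adjusted p = 0.00689 by limma), kept in all 19 alternatives. The change from day 1 to day 28 was -1.29 ± 0.35 (adjusted p = 0.0357). That call was lost on dropping any of the day 1 libraries 0, 1 and 2 or the day 28 library 0 (adjusted p = 0.056, 0.07, 0.138 and 0.123), without a filter (0.0744) and with isoforms tested singly (0.0556).

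Clec4a3 was even across PBS, at 5.79, 5.24 and 5.78 FPKM, and reached 14.5, 21.3 and 19.2 FPKM at day 1. At day 28 it was at 3.33, 4.91 and 10.5 FPKM, on both sides of the PBS values. The log2 fold change was 1.53 ± 0.31 at day 1 (adjusted p = 0.00993 by limma) and -1.52 ± 0.31 from day 1 to day 28 (adjusted p = 0.00812), and both calls were kept in all 19 alternatives. Against PBS the day 28 value was 0.01 ± 0.31 (95% interval -0.66 to 0.68, adjusted p = 0.988).

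Clec4a1 and Clec4a3 are also adjacent on chromosome 4, and their upstream bases are shown for comparison with those of Clec4d and Clec4e. Clec4a1 is at chr4:157845561-157845810 and Clec4a3 at chr4:157886508-157886757, both on the plus strand of GRCr8, with capitals as above. The window of Clec4a3 precedes the start of 1 of its transcripts and lies inside the span that RefSeq gives the gene.
Clec4a1: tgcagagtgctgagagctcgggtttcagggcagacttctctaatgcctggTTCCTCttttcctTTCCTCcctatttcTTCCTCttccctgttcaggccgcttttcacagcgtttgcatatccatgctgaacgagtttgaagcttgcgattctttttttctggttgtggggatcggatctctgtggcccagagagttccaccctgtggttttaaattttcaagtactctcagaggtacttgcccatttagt
Clec4a3: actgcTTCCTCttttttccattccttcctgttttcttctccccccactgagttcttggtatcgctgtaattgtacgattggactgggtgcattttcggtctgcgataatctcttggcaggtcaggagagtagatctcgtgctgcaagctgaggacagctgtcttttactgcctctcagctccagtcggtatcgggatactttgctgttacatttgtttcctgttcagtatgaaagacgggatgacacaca
The PU.1 letters were found 3 times before Clec4a1 and 1 time before Clec4a3, so that 4 of the 5 receptors with a RefSeq window held them. The C/EBP letters were in neither. In a global alignment the windows of Clec4a1 and Clec4a3 were 50.2% identical and those of Clec4d and Clec4e 51.9%, beside 46.7% to 54.4% for all 10 pairs of the 5 windows. Coding sequences were not compared here, so sharing of reads between these related genes was not tested.

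**Figure D2:**
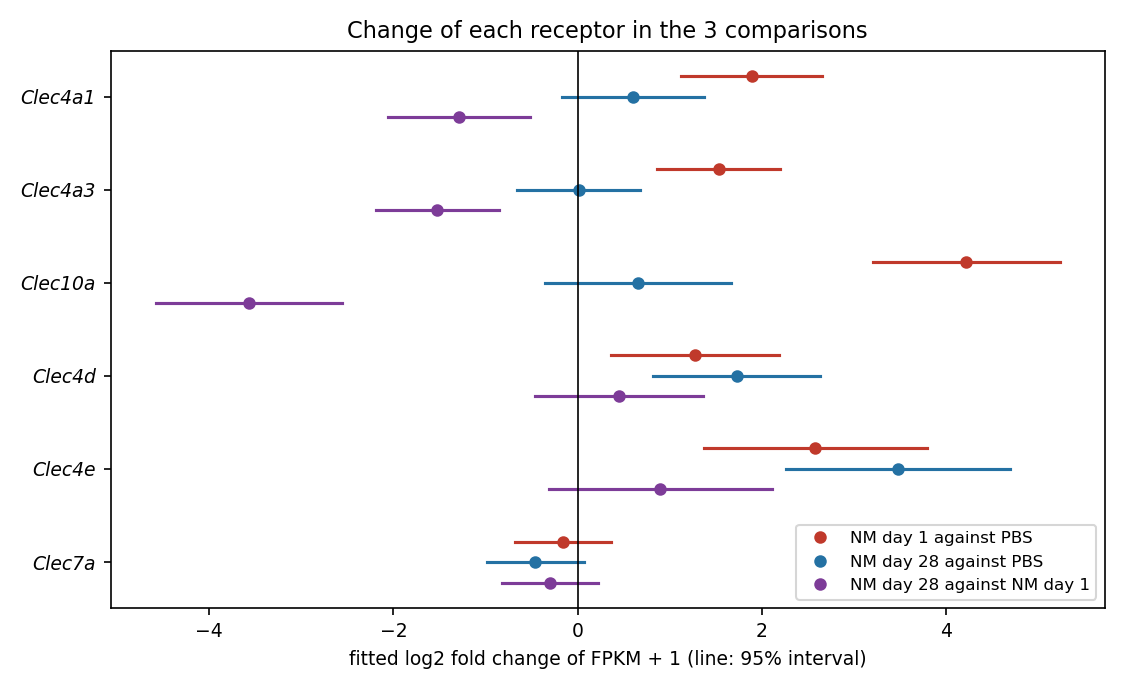
Fitted log2 fold change of FPKM + 1 (points) with 95% intervals (lines) for each receptor in the 3 comparisons. The intervals of Clec10a, Clec4a1 and Clec4a3 lie above 0 at day 1 and below 0 from day 1 to day 28, those of Clec4d and Clec4e lie above 0 against PBS at both days, and those of Clec7a include 0.

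Between the Clec4a and Clec4d ends of this chromosome 4 cluster lie 3 further receptor genes of the same family in the table. Clec4a2 was at 1.37, 0 and 0.355 FPKM in PBS, 4.06, 2.99 and 5.49 at day 1 and 3.27, 0.966 and 4.48 at day 28. It was called higher at day 1 (log2 fold change 1.78 ± 0.41, adjusted p = 0.02 by limma), but not with PBS replicate 1 or 2 dropped, with replicate 0 or 2 of NM day 1 dropped, or on quantile-normalised values (the largest adjusted p was 0.0936). Clec4b2 was listed at 0 in all PBS and NM day 28 libraries and at 2.90, 0.426 and 0.782 FPKM at day 1. Clec4a was between 0.322 and 1.91 FPKM at day 1, at most 0.333 in PBS and listed at 0 in each day 28 library. Both were too low to be tested.

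**Figure D3:**
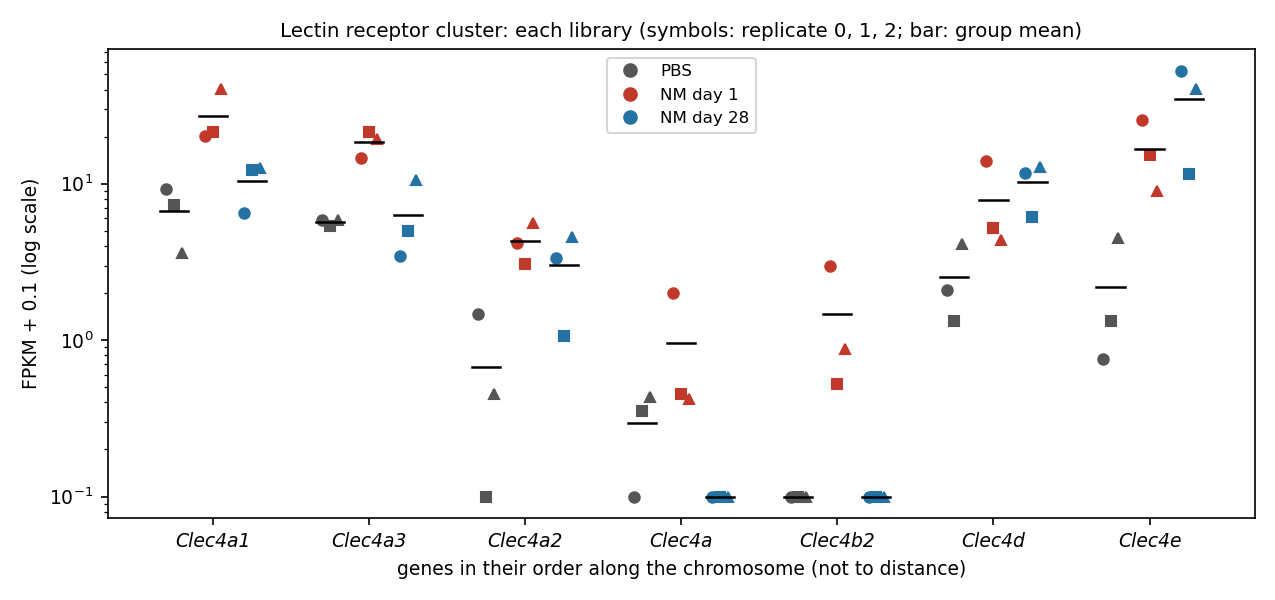
FPKM + 0.1 (log axis) of 7 neighbouring receptor genes in each library, with genes placed in chromosomal order and bars at group means. Clec4a1 and Clec4a3 at one end are highest at day 1, whereas Clec4e at the other end has its highest mean, 34.8 FPKM, at day 28.

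Clec7a and Clec10a have lectin neighbours of their own. Beside Clec7a, the receptor genes Olr1, Clec1a, Clec9a, Clec12b and Clec1b averaged 76.2, 21.8, 6.04, 1.25 and 1.46 FPKM in PBS and none was called in any comparison. Next to Clec10a lies Asgr2, a subunit of the hepatic asialoglycoprotein receptor, which like Clec10a binds galactose. Asgr2 was at 0.103, 0.142 and 0.372 FPKM in PBS, 3.45, 4.49 and 5.40 at day 1 and 3.21, 2.55 and 2.35 at day 28. Its log2 fold changes of 2.17 ± 0.25 at day 1 and 1.62 ± 0.25 at day 28 passed (adjusted p = 0.000231 and 0.00298 by limma) and were kept in all 18 alternatives in which it was tested. Unlike Clec10a it remained above every PBS library at day 28.

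Of 57 other C-type lectin and lectin-like genes listed, 45 were in the table and 19 were tested. At day 1, 5 of the 19 were called higher and 0 lower, at day 28 4 were called higher and 2 lower, and between the days 0 were higher and 2 lower. Their median log2 fold change was 0.21, 0.07 and -0.50, beside -0.04, -0.04 and 0.00 over all genes. The natural killer receptor gene Klri1 was listed at 0 in every PBS and day 28 library and at 9.52, 13.1 and 13.1 FPKM at day 1. It passed the filter only through these day 1 libraries, and a listed 0 can be a failed estimate. Clec5a, which signals through another adaptor chain, went from 12.02 ± 0.314 to 25.7 ± 9.03 and 26.3 ± 3.16 FPKM (SD, n = 3; adjusted p = 0.0163 and 0.0132 by limma). Its calls ended without PBS replicate 1 at either day, without NM day 1 replicate 0 at day 1 and without NM day 28 replicate 2 at day 28 (at most 0.0729).

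At day 28, 2 lectin genes of this list that are well expressed in PBS were called lower and Clec12a was called higher, while Clec2g, Cd302 and Olr1 did not pass (adjusted p = 0.784, 0.42 and 0.785 by limma). Clec2l, a lectin-like gene, fell from 296.7 ± 57.4 FPKM in PBS and 235.9 ± 59.9 at day 1 to 81.5 ± 28.6 at day 28 (SD, n = 3; log2 fold change against PBS -1.89 ± 0.26 SE, adjusted p = 0.00151 by limma). Mrc1, the mannose receptor, went from 376.1 ± 38.3 in PBS to 228.9 ± 47.2 FPKM (adjusted p = 0.0323). The call of Mrc1 ended after quantile normalisation, with only the 6 libraries compared, on dropping any PBS library and on dropping day 28 library 0 or 2 (largest adjusted p 0.157). Clec12a, an inhibitory receptor, stood at 655.0 ± 113.1 in PBS and 1071 ± 90.4 at day 28 (adjusted p = 0.0497), a call lost in 14 of 19 alternatives, among them those that drop any 1 PBS or day 28 library or day 1 library 0 or 2 (largest adjusted p 0.129).

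Genes that carry the receptor signal were tested too. Of 14 adaptors and kinases tested, 0 were called higher and 1 lower at day 1, beside 5.28% and 4.58% of all genes tested. At day 28 against PBS 0 were called either way, beside 7.04% of all genes. These counts do not set the list apart from all genes. At an unadjusted p under 0.05 by limma, 0 were higher and 3 lower at day 1, and 1 was higher and 0 lower at day 28. The median log2 fold changes were -0.15 and -0.08. Fcer1g, the adaptor chain of Clec4e and Clec4d, was abundant at 5990.2 ± 835.4 FPKM in PBS, 4568 ± 583.4 at day 1 and 5780 ± 1714 at day 28, and did not pass (adjusted p = 0.409 at day 1). Syk was the 1 called lower, from 123.4, 126.6 and 131.6 FPKM in PBS to 73.8, 91.9 and 90.7 at day 1 (log2 fold change -0.57 ± 0.14, adjusted p = 0.0256 by limma). The Syk call did not survive quantile normalisation or the loss of any 1 PBS or day 1 library (largest adjusted p 0.142).

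Among 5 inhibitory phosphatases and regulators, Ptpn6 was called lower at both days. This phosphatase, recruited by inhibitory receptors, went from 464.2 ± 31.3 FPKM in PBS to 307.2 ± 31.1 at day 1 and 268.6 ± 34.6 at day 28 (SD, n = 3; adjusted p = 0.0352 and 0.0122 by limma). The day 28 call ended without PBS replicate 1 (0.0663), and the day 1 call in 10 of 19 alternatives, among them both scalings and those that drop PBS replicate 0 or 1, any day 1 library, or the day 28 libraries 0 or 2 (largest adjusted p 0.174). Socs1, a feedback inhibitor of cytokine signals, was lower at day 28 than at day 1 (-1.24 ± 0.32, adjusted p = 0.0277), but not once library 0 or 2 of either NM group was dropped, nor without a filter (largest adjusted p 0.113). Of 6 transcription factors downstream, Irf5 was called higher at day 1 (0.56 ± 0.15, adjusted p = 0.0381) and Nfkb2 lower at day 28 (-0.82 ± 0.18, adjusted p = 0.018). Between the days Nfkb1 was lower at day 28 (-0.51 ± 0.15, adjusted p = 0.0427). These 3 calls ended in 9, 2 and 8 of 19 alternatives, Nfkb2 without PBS replicate 0 or 1 (adjusted p = 0.103 without PBS replicate 1), Nfkb1 on dropping PBS replicate 1, any day 1 library or the day 28 libraries 0 or 2, and Irf5 without any 1 library other than NM day 28 replicate 1.

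Genes that these receptors can induce were measured too, though many other receptors induce them as well. Of 13 tested, 6 were called higher and 0 lower at day 1 and 5 higher and 0 lower at day 28, with median log2 fold changes of 0.86 and 0.42. Il1b, encoding interleukin 1 beta, was at 12.4 ± 2.86 FPKM in PBS, 132.6 ± 55.5 at day 1 and 114.9 ± 66.6 at day 28 (SD, n = 3; adjusted p = 0.000903 and 0.00302 by limma). Cxcl2, which attracts neutrophils, was at 5.15 ± 0.789, 47.6 ± 27.9 and 54.2 ± 25.2 FPKM in the same order (adjusted p = 0.00408 and 0.00298). Ccl2, which attracts monocytes, was at 1.74 ± 1.36, 132.3 ± 57.0 and 43.9 ± 24.2 FPKM (adjusted p = 2.63e-05 and 0.000763), and Nos2 rose at both days (adjusted p = 0.00313 and 0.0126). Tnf and Nlrp3 did not pass (log2 fold change 0.54 and 0.40 at day 1). From day 1 to day 28, Cxcl1 and Ccl2 fell (-1.86 and -1.66, adjusted p = 0.0166 and 0.0481). The Ccl2 fall ended in 11 of 19 alternatives, among them those that drop PBS replicate 1, day 1 library 0 or 1, or day 28 library 1 or 2 (largest adjusted p 0.169). Cxcl1 reached 1 FPKM only in the day 1 libraries, so it passed the filter through the group where it was high. It could be tested in 15 alternatives, none of which dropped a day 1 library, and its fall ended after quantile normalisation (0.0527). The day 28 call of Nos2 ended on dropping PBS replicate 1 (0.0546) or day 28 library 2.

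**Figure D4:**
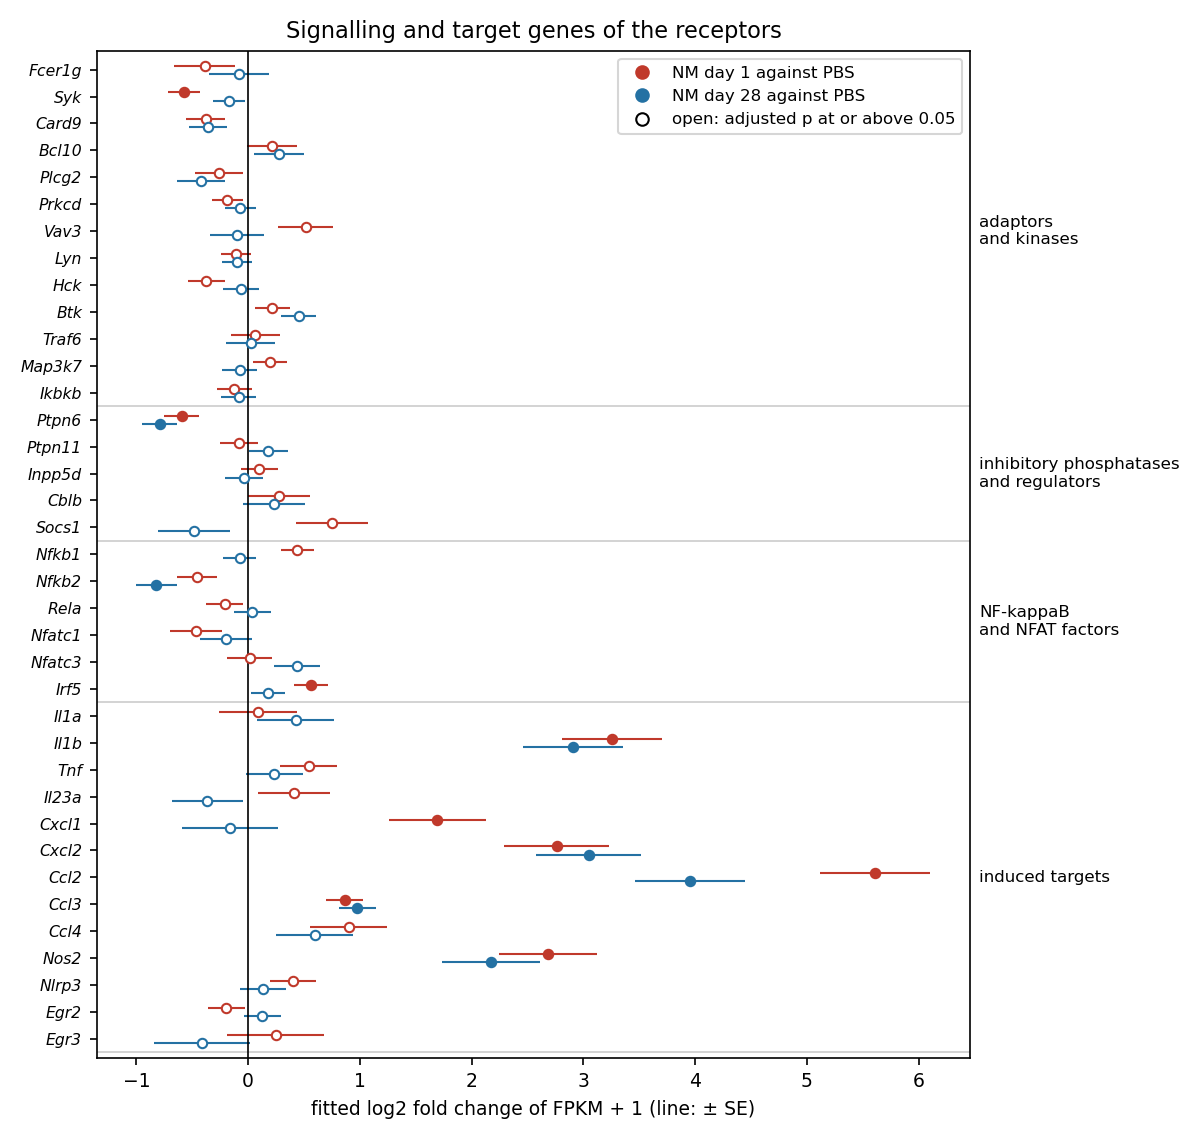
Fitted log2 fold change of FPKM + 1 (points, lines ± SE) of the signalling and target genes reported here at day 1 and day 28 against PBS, filled where the adjusted p was under 0.05. The adaptors and kinases gather near 0, while Il1b, Cxcl2, Ccl2 and Nos2 among the induced targets lie above 2 at both days.

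Of 5 endogenous ligand genes tested, Lgals9, encoding galectin 9, which binds Clec7a, was called higher at day 1, at 4.62 ± 1.74 against 0.743 ± 0.405 FPKM in PBS (SD, n = 3; adjusted p = 0.0111 by limma). It was lower again at day 28 (1.37 ± 0.816 FPKM, adjusted p = 0.0327 against day 1). The first call ended on dropping day 1 library 0 (0.0523) or 2, and the second in 7 of 18 alternatives, among them those that drop any 1 day 1 library or day 28 library 1 or 2 (largest adjusted p 0.139). Among 7 genes that govern transcription of such receptors, Irf4, a factor of alternative activation, rose from 1.31, 0.965 and 0.875 FPKM to 5.32, 7.25 and 4.46 at day 1 (log2 fold change 1.69 ± 0.26, adjusted p = 0.00187), and was called in all 18 alternatives in which it was tested. Irf4 was lower at day 28 than at day 1 (-1.04 ± 0.26, adjusted p = 0.0221), but not on quantile-normalised values, nor on dropping day 1 library 0 or 1 or day 28 library 0 (largest adjusted p 0.115).

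Klf4 and Pparg, also of this list, were called lower at day 1 (-0.82 ± 0.21 and -0.57 ± 0.15, adjusted p = 0.0314 and 0.0315 by limma), and Pparg was higher at day 28 than at day 1 (0.61 ± 0.15, adjusted p = 0.0192). The calls against PBS ended in 7 and 8 of 19 alternatives, for Klf4 among others on dropping PBS replicate 1 or 2 or any day 1 library, and for Pparg on dropping any PBS library or day 1 library 0 or 1 (largest adjusted p 0.13 and 0.15). The Pparg call between the days ended on dropping day 1 library 0 or 1 or day 28 library 0 or 2 (largest adjusted p 0.0928). Spi1, which encodes PU.1, went from 366.6 ± 72.4 FPKM in PBS to 231.5 ± 33.8 at day 1 (adjusted p = 0.057) and 211.2 ± 36.5 at day 28 (adjusted p = 0.0339; SD, n = 3). The day 28 call of Spi1 ended in 8 of 19 alternatives, among them those that drop PBS replicate 0 or 1 or any day 28 library (largest adjusted p 0.118). Cebpb, a C/EBP factor known to act on Clec4e, was at 667.2, 613.5 and 607.9 FPKM on average in the 3 groups and did not pass (adjusted p = 0.725 at day 1).

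Markers of other cell types were measured beside the receptors. The summed FPKM of 11 neutrophil markers ran from 72.8 to 107.0 in PBS, 532.2 to 907.2 at day 1 and was 607.4, 211.8 and 725.1 in NM day 28 replicates 0, 1 and 2, and 5 of 8 tested were called higher at day 1 and 4 at day 28. S100a9 was 1.88, 5.17 and 5.41 FPKM in PBS, 415.6, 298.7 and 160.9 at day 1 and 319.7, 78.3 and 345.6 at day 28. Its order over the libraries within NM day 1, and the low NM day 28 replicate 1, were those of Clec4e. The ratio of S100a9 to Clec4e was 2.85, 4.25 and 1.24 in PBS, 16.2, 19.8 and 18.2 at day 1 and 6.05, 6.89 and 8.61 at day 28, so that the day 28 libraries held more Clec4e per S100a9 than those of day 1. The part of neutrophils in the Clec4d and Clec4e values was not tested.

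**Figure D5:**
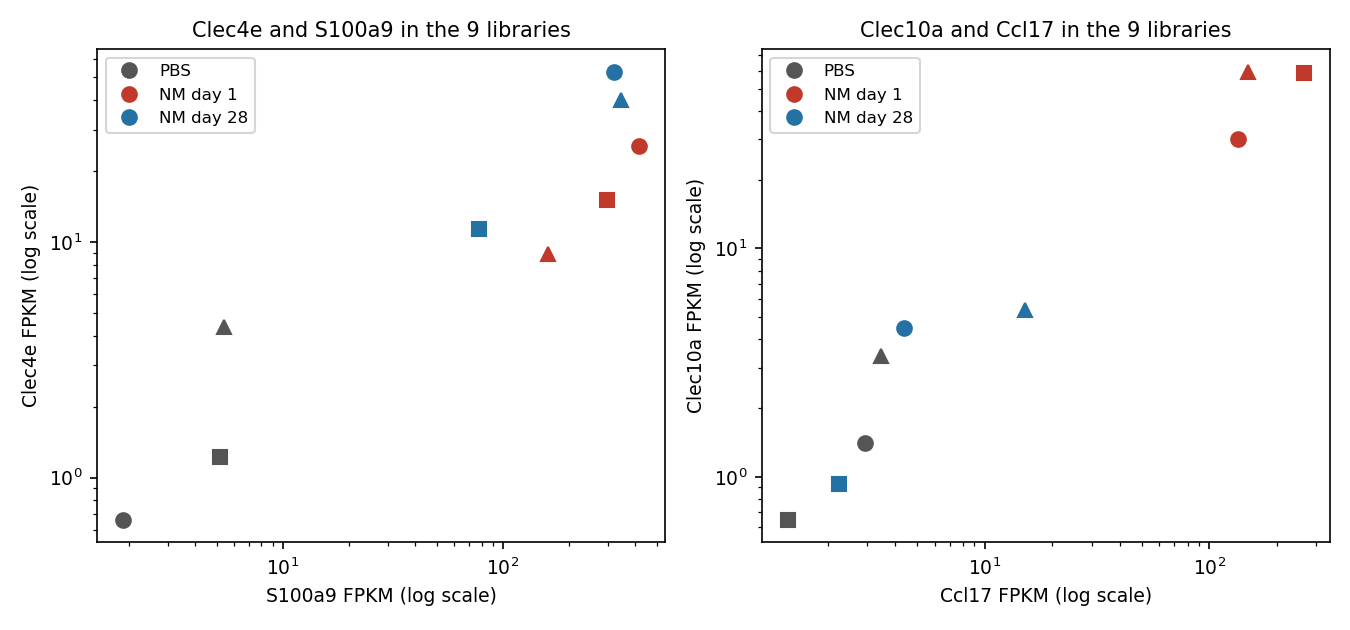
Left, Clec4e against S100a9 FPKM, and right, Clec10a against Ccl17 FPKM, in each of the 9 libraries (log axes; circle, square and triangle are replicates 0, 1 and 2). The day 28 libraries hold more Clec4e for their S100a9 than the day 1 libraries, and the 3 day 1 libraries have the highest values of both Clec10a and Ccl17.

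Some monocyte and dendritic cell markers were called higher at day 1, as were Clec10a, Clec4a1 and Clec4a3. Of 11 monocyte and recruited macrophage markers tested, 6 were called higher at day 1, 2 at day 28, and 5 lower at day 28 than at day 1, while S100a4 and Cd14 did not pass at day 1 (log2 fold change -0.06 and 0.18). Their summed FPKM did not separate the groups (1228 to 2097 in PBS, 1430 to 1792 at day 1, 816.0 to 1564 at day 28). S100a4 alone averaged 1469, 1369 and 1081 FPKM in these groups, so the sum mostly followed that gene and could not show rises of scarcer markers. The monocyte chemokine receptor Ccr2 was listed at 0 in all PBS libraries, at 3.33, 6.60 and 9.25 FPKM at day 1 and at 0, 0.638 and 0.590 at day 28. Ccr2 is counted among the 6 and the 5, yet it reached 1 FPKM only in the day 1 libraries. It thus passed the filter through the group where it was high, and a listed 0 can be a failed estimate. Of 4 dendritic cell markers tested, 2 were called higher at day 1, among them Ccr7, at 0.235 ± 0.167 in PBS, 10.4 ± 4.10 at day 1 and 0.953 ± 0.950 FPKM at day 28 (SD, n = 3), while the sums of 5 such markers overlapped (54.7 to 76.1, 41.1 to 66.3 and 22.8 to 44.4 FPKM). The other 2 did not pass at day 1, and both means were lower there: Batf3 averaged 53.7 ± 10.9 FPKM in PBS and 28.1 ± 12.5 at day 1, with no overlap (adjusted p = 0.0967 by limma), and Cd1d1 9.24 ± 1.56 and 8.14 ± 1.28 (adjusted p = 0.734). Batf3 made up most of the PBS sums, so the overlap of the sums says little about the scarcer dendritic cell markers. Flt3, the defining dendritic cell gene, was not found by symbol in the deposited table, so it was not analysed here. The part of these cells in the day 1 values of Clec10a, Clec4a1 and Clec4a3 was not tested.

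Of 9 alveolar epithelial markers, 7 were called higher at day 1, with sums of 887.7 to 2935 FPKM against 189.9 to 279.5 in PBS and 222.9 to 304.9 at day 28. Epcam did not pass, and Napsa was lowest at day 1 (155.4 ± 28.1 FPKM in PBS, 118.6 ± 9.66 at day 1 and 216.3 ± 41.6 at day 28) and was called higher at day 28 than at day 1 (log2 fold change 0.84, adjusted p = 0.0128 by limma). Sftpc, the defining gene of this list, was 2231, 865.0 and 581.9 FPKM in NM day 1 replicates 0, 1 and 2. Clec10a was lowest and Clec4e highest in replicate 0 of that group, where the epithelial sum was highest. Among lymphocyte markers, the sums ran from 16.2 to 27.0 FPKM in PBS, 37.8 to 48.2 at day 1 and 17.7 to 28.7 at day 28 for T cells, and from 5.75 to 5.88, 38.1 to 47.6 and 9.03 to 20.4 for natural killer cells, with 2 of 6 and 1 of 3 tested called higher at day 1. At day 28, 1 of 3 natural killer markers tested was called higher than PBS. The T cell gene Cd3e was listed at 0 in 8 of 9 libraries. The natural killer gene Ncr1 was at 0.112, 0 and 0 FPKM in PBS and 0.578, 1.06 and 0.392 at day 1. Ncr1 was highest at day 28, at 1.61, 1.39 and 2.05 FPKM, whereas the natural killer sums were highest at day 1. B cell, and eosinophil and mast cell, sums stayed at or under 7.91 FPKM, except 37.8 and 8.77 for the latter in PBS replicate 1 and NM day 1 replicate 0. Markers of macrophages and of resident alveolar macrophages summed to between 7949 and 24254 and between 803.2 and 1694 FPKM, with PBS replicate 0 highest in both. Lyz2 alone averaged 17252, 9891 and 12504 FPKM in PBS, NM day 1 and NM day 28, so the macrophage sum mostly followed that gene. At day 1, 1 of 5 macrophage markers tested was called higher and 0 lower (2 of 5 either way at an unadjusted p under 0.05 by limma). The gene called, Cd163, was listed at 0 in every PBS and day 28 library and averaged 2.62 ± 1.88 FPKM at day 1 (SD, n = 3). It passed the filter only through the day 1 libraries, so its call is given as a description only. Of 7 resident alveolar macrophage markers tested, 1 was called higher and 2 lower at day 1. The part of these shifts in the receptor values was not tested.

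The genes most like each receptor were ranked by Pearson r of log2(FPKM + 1) over the 9 libraries, as a description with no test. Clec10a was most like Ccl17 (r = 0.98), a chemokine for T cells, Ly6e (0.98) and the interferon-induced Mx2 (0.98). Clec4e was most like Baiap2, Sycp2 and Stra6l (each r = 0.97), and Clec4d like Gsta1 (0.95), Slc1a3 (0.94) and Nampt (0.94). Clec4a1 was most like Nxpe3 (0.94), Usp18 (0.92) and Gpbp1 (0.92), and Clec4a3 like Swap70 (0.96), Rasgrp2 (0.96) and Limd2 (0.95). Clec7a was most like B2m (0.95), Ctss (0.94) and Arl6ip1 (0.94), which averaged 1314, 694.9 and 78.0 FPKM in PBS and 854.0, 435.4 and 43.3 at day 28. Among the receptors themselves, Clec4a3 had r = 0.89 with Clec10a and 0.83 with Clec4a1, but 0.18 with Clec4d and 0.20 with Clec4e.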

How the data were processed

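Per the submitters' processing notes, the authors used TopHat and Cuffdiff with the rat build rn4. Tool versions, annotation, strand and the handling of multiply mapped reads are not given in the sources used here. Values are FPKM per RefSeq transcript as deposited by the authors (18197 rows, 9 libraries). A RefSeq gene table (GRCr8) named 17189 rows (94.5%), and summing rows of a symbol gave 17109 genes. Genes reaching 1 FPKM in 3 or more of the 9 libraries (9885) entered limma 3.58.1 in R 4.3.3, which fitted 3 group means to log2(FPKM + 1) with trended eBayes and Benjamini-Hochberg adjustment over all 9885. Log2 fold changes are on that scale, which understates changes of low genes. Fragment counts were not used here, so no counting error is given and precision rests on the spread of 3 libraries.

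The 6 members, the gene lists and the tests were chosen with earlier results of these data known. Genes named are the 6 members, up to 3 called genes of smallest adjusted p for each pathway list and comparison, defining markers, lectins within 5 genes of a member in RefSeq order and the 3 genes of highest r with each member; any other was chosen after its values were seen. Lists held other C-type lectin receptors, adaptors and kinases, NF-kappaB and NFAT factors, inhibitory phosphatases and regulators, induced targets, endogenous ligands, inducers of receptor transcription, and markers of 10 cell types. Some genes of these lists are counted but not reported by name here.

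Alternatives changed the pseudocount (0.1, 5), the filter (none, 5 FPKM) or the scaling (median of ratios, quantile), tested transcripts singly, added the replicate number, kept only the 6 libraries of a comparison, used robust eBayes, or dropped each library in turn, which leaves 2 in a group. On simulated data with 200 of 9885 genes changed, the test recovered 40.3% of genes changed by 1 and 91.0% of those changed by 2 on the log2 scale for NM day 1 against PBS. Of genes changed by 0.5 it recovered 7.58%, so most changes of that size would be missed. Overlapping promoter windows on opposite strands were compared, and 1278 pairs were reverse complements where they overlapped. The number of pairs compared was not recorded. Python 3.11.15, pandas 2.3.3, biopython 1.88 and matplotlib 3.10.9 made tables and figures.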

Additional observations from a re-analysis of the deposited data

Results flagged for a closer look

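These results stand out because the effect against PBS differed between the days, tested as NM day 28 against NM day 1 with limma over all genes (n = 3 libraries a group, adjusted p in parentheses). Among the receptors the log2 differences were -3.57 for Clec10a (0.000767), -1.52 for Clec4a3 (0.00812) and -1.29 for Clec4a1 (0.0357), and in each the 3 day 28 libraries lay below the 3 day 1 libraries. Among other lectins they were -3.68 for Klri1 (7.18e-06) and -1.54 for Clec2l (0.00314). Klri1 was listed at 0 in every PBS and day 28 library, which can be a failed estimate, and passed the filter only through day 1. It was not tested in any alternative that dropped a day 1 library, so its adjusted p is given as a description only. Signalling genes gave -1.24 for Socs1 (0.0277) and -0.51 for Nfkb1 (0.0427). Targets, ligands and factors gave -1.86 for Cxcl1 (0.0166), -1.66 for Ccl2 (0.0481), -1.27 for Lgals9 (0.0327), -1.04 for Irf4 (0.0221) and 0.61 for Pparg (0.0192). Cxcl1, like Klri1, passed the filter only through the day 1 libraries. Many of these calls depended on the processing or on single libraries. They were lost in 11 of 19 alternatives for Ccl2, 8 of 19 for Nfkb1, 7 of 18 for Lgals9 and 6 of 19 for Clec4a1. For Socs1 it was 5 of 19, for Pparg 4 of 19, for Irf4 4 of 18 and for Cxcl1 1 of 15. The calls of Clec10a, Clec4a3 and Clec2l were kept in all 19. Clec4d and Clec4e were not among the results flagged.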

How the results depend on the processing

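Over 342 values of the 6 receptors (3 comparisons, 19 alternatives each), 320 kept their direction and their side of the threshold, 16 lost a call, 1 gained one and 5 changed sign without a call. The sign changes were Clec7a at day 1 after quantile normalisation (0.14) and without PBS replicate 0 (0.023), and Clec4a3 at day 28 with a pseudocount of 0.1 (-0.0077), without PBS replicate 1 (-0.03) and without NM day 28 replicate 2 (-0.38, in a range of -0.38 to 0.32 with a library left out); the cause was not tested. The number of receptors called was 4 at day 1 (3 to 4 with a library left out, 5 with the replicate block), 2 at day 28 and 3 between the days (2 to 3 with a library left out). At day 28 it was 1 without a filter, 1 with isoforms tested singly, and 1 to 2 with a library left out. Genes called over the whole table ranged from 181 to 658 higher and 55 to 721 lower at day 1 (522 and 453 as reported), 154 to 368 and 120 to 426 at day 28 (303 and 393), and 214 to 630 and 300 to 798 between the days (470 and 680). The lowest were without NM day 1 replicate 0 at day 1, PBS replicate 1 at day 28 and NM day 1 replicate 1 between the days. Other lectin receptors called numbered 2 to 6 at day 1 (5 as reported), 3 to 7 at day 28 (6) and 1 to 5 between the days (2). Pathway lists with 1 to 3 calls ranged from 0 to 4.

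The replicate numbers do not pair the libraries by the data: 3 of 9 correlations of same-numbered deviations exceeded 0.1 (-0.10 to 0.20), and in 4 of 9 a library was most like its own number. With the number as a block, Clec4d at day 1 passed (adjusted p = 0.0477), and no other receptor call changed.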
